A study of Drosophila melanogaster with 18 samples.

Results

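The genes described here are those whose expression in the Drosophila melanogaster fat body changed differently between the early wandering larva and the white prepupa in flies from the Netherlands (NL) and in flies from Zambia (ZI). For each gene, the log2 change from early to prepupal in ZI was subtracted from the same change in NL, so that a positive contrast means a change more positive in NL and 1 on this scale is a 2-fold difference. Of 12460 genes with a mean count of at least 15 over the 18 libraries, 184 (1.48%) passed this interaction test at an adjusted p under 0.05 (edgeR quasi-likelihood test, Benjamini-Hochberg adjustment), 85 of them (0.682%) with a positive and 99 (0.795%) with a negative contrast.

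The contrast compared 4 groups of 3 RNA-seq libraries each, which were NL prepupae, early NL larvae, ZI prepupae and early ZI larvae. The 3 late wandering libraries of each population entered the count minimum and the shared estimate of the spread, but no term of the contrast. All animals were untreated females staged at 25°C on food dyed blue, the early larvae by a dark blue gut, the late larvae by a cleared gut and the prepupae just after puparium formation. Each NL library pooled 36 fat bodies from 12 isofemale strains and each ZI library 30 from 10, so that the libraries of a population came from the same strains, and the p-values measure the spread between pools rather than between strains or wild flies. Total counts ran from 14998610 to 30328600 in NL prepupae, 30029493 to 33687433 in early NL larvae, 17830666 to 32532383 in ZI prepupae and 29527977 to 37250385 in early ZI larvae. The defining fat body products were plentiful, the 14 storage and carrier genes tested summing to between 266390 and 357170 CPM (counts scaled to a library of 1e+06, with TMM factors) in the prepupal and between 498560 and 585620 CPM in the early libraries.

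The larval fat body stores fat, glycogen and protein, clears foreign compounds and secretes the immune peptides of the hemolymph. Late in the third instar a pulse of the steroid ecdysone ends feeding and starts wandering. A later, larger pulse during late wandering starts puparium formation. Around this time the fat body turns from synthesis towards release of its stores and loosening of its cells. Detoxification enzymes work in steps there, cytochrome P450s oxidising a compound and glutathione S-transferases (GSTs) and UDP-glycosyltransferases (UGTs) attaching groups that make it soluble.

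Most of the 184 genes changed in both populations in the same direction or in 1 of them, and 21 were called in opposite directions. These within-population changes are the terms of the contrast that chose the genes, so they are given as a description, beside 5670 (45.5%) of all genes changed in NL and 5132 (41.2%) in ZI. Among the 85 positive genes, 17 rose in both populations and more so in NL, among them the matrix metalloprotease Mmp1 and the glucose transporter Glut1, while 13 fell in both and more so in ZI, among them GstD10 and the trehalase gene Treh. Another 19 rose in NL with no call in ZI, such as the serine protease homolog SPH93, and 26 fell in ZI with no call in NL, such as the maltase Mal-A1. Among the 99 negative genes, 23 rose in both and more so in ZI, as CG5697 did, and 15 fell in both and more so in NL, as did Inos, which encodes myo-inositol-1-phosphate synthase. A further 31 fell in NL with no call in ZI, for example Ugt35C1, and 19 rose in ZI with no call in NL, for example PGRP-SB1, a peptidoglycan recognition protein. The remaining 10 positive genes rose in NL and fell in ZI, and the remaining 11 negative genes fell in NL and rose in ZI, Cyp6g1 and GstD5 among them. The contrast exceeded 1 in absolute value in 67 positive and 74 negative genes, and 2 in 24 and 21 genes, against a median absolute contrast of 0.25 over all genes tested. At the threshold, CG8323 was the last gene called, with a contrast of -0.88 (adjusted p = 0.0497), and Sema5c the first not called, with 1.06 (adjusted p = 0.0506). CG8323 lost its call in 10 of the 12 fits that left out 1 library (-0.73 and an adjusted p of 0.144 without NL prepupal replicate 3).

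**Figure D1:**
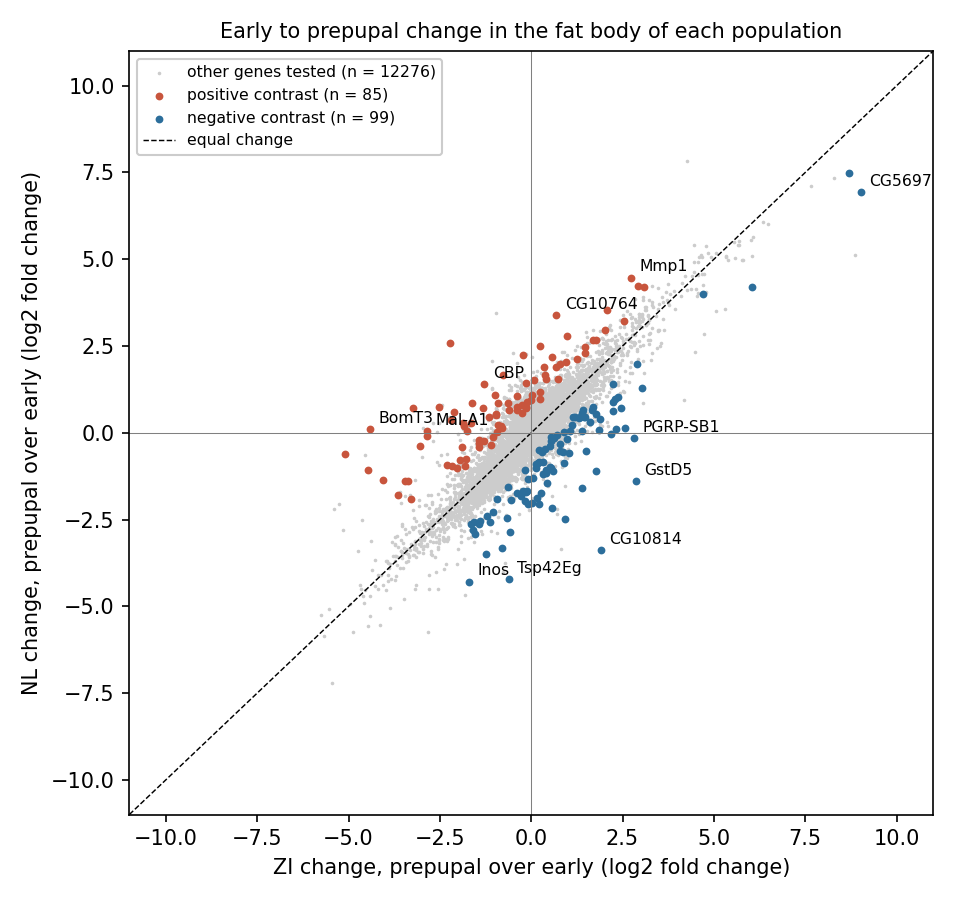
Log2 change from early to prepupal in ZI (x axis) and NL (y axis) for the 12460 genes tested, with the 85 genes of positive contrast in red, the 99 of negative contrast in blue and the dashed line at equal change. Most genes lie along the line, while CG5697 rose steeply in both populations and GstD5 and CBP lie in the quadrants of opposite change.

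All 184 genes kept the sign of their contrast in each of the 20 alternative analyses that gave a value, 78 kept their call in every one of the 12 fits that left out 1 library, and 69 in every alternative. For genes outside these 78 that are named, the number of these 12 leave-one-out fits in which the call was lost is given. The fit of highest adjusted p is given with it, except for genes named only as neighbours. The count of calls itself was 103 without NL prepupal replicate 1, 110 without ZI prepupal replicate 2 and 121 without ZI prepupal replicate 3.

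The populations stood further apart at the early than at the prepupal stage more often than not, among these genes as over all genes. The absolute NL over ZI difference was larger in early larvae for 119 of the 184 genes (64.7%), beside 59.3% of all genes tested. Positive genes had a median NL over ZI log2 difference of 0.28 in prepupae and of -0.98 in early larvae, where most were lower in NL. Negative genes mirrored this, with medians of -0.41 in prepupae and 0.90 in early larvae. A prepupal population difference was called for 34 positive genes, 30 of them higher in NL, and for 48 negative genes, 37 of them higher in ZI, against 592 of all genes (4.75%). An early difference was called for 57 positive genes, 54 of them higher in ZI, and for 67 negative genes, 65 of them higher in NL, against 938 of all genes (7.53%). Both sets of calls are parts of the contrast and describe its shape.

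The late libraries entered no term of the contrast, but they did enter the shared estimate of the spread. The late calls are therefore not fully independent of the choice of these genes. In late wandering larvae 110 of the 184 genes (59.8%) differed between NL and ZI at an adjusted p under 0.05, against 3463 of all genes (27.8%). These counts depended on the late libraries, with 99 called genes (53.8%) and 1771 of all genes (14.2%) without ZI late replicate 2, 99 (53.8%) and 1773 (14.2%) without NL late replicate 2, 93 (50.5%) and 1825 (14.6%) without ZI late replicate 3, and 89 (48.4%) and 1658 (13.3%) from the late libraries alone. The called genes were also more highly expressed, with a median of 15.3 CPM against 4.81 CPM over all genes tested, and genes with more counts are called more often. Of the 110, 21 positive and 28 negative genes were higher in NL, and 23 positive and 38 negative genes were higher in ZI. The late difference lay between the early and the prepupal one for 133 genes (72.3%) and was nearer to the prepupal one for 131 (71.2%), beside 18.3% and 64.9% of all genes tested. Genes chosen for a wide gap between the early and the prepupal difference leave more room between them, so that the first of these shares is no independent result. Across the 184 genes the late difference correlated with the prepupal one at r = 0.77 (Spearman rho 0.78) and with the early one at r = 0.55 (rho 0.44). Over all 12460 genes these values were 0.53 (rho 0.35) and 0.30 (rho 0.02). These are descriptions across genes, which are not independent replicates. The early and prepupal differences are also the terms of the contrast that chose the 184 genes. The higher correlations among them are therefore no independent result.

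**Figure D2:**
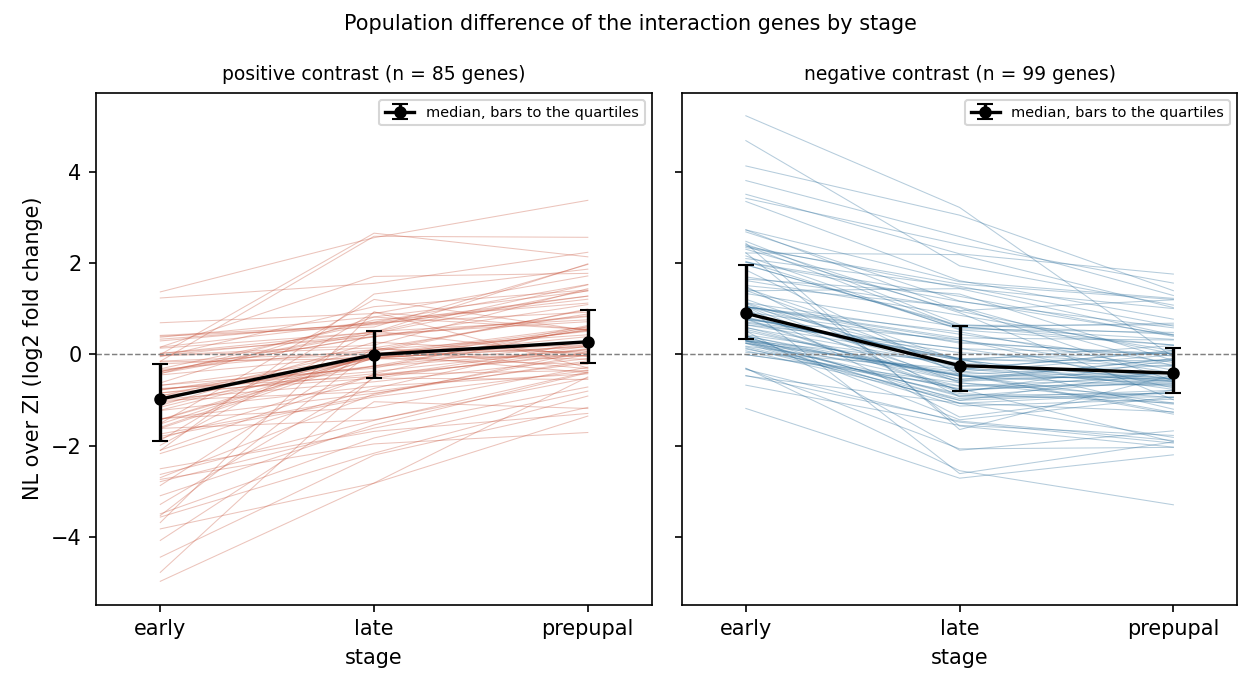
NL over ZI log2 difference (y axis) at the early, late and prepupal stages (x axis) for the 85 genes of positive contrast (left) and the 99 of negative contrast (right), 1 line per gene, with the median and the quartiles in black. The prepupal medians are 0.28 and -0.41 and the early ones -0.98 and 0.90, and the late medians lie nearer to the prepupal ones.

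Among the gene lists, those of detoxification enzymes held the most calls, with 7 of 83 genes tested in the P450 list, 4 of 33 in the GST list and 4 of 34 in the UGT list, beside 1.48% of all genes. By share the small lists of hemocyte markers, with 2 of 11, and tracheal markers, with 1 of 6, held more. In the GST list 3 genes had a positive and 1 a negative contrast, out of 33 tested (median contrast -0.32). All 4 belong to the 10 GstD genes tested, which encode the delta class, and all lie within a stretch of chromosome 3R from 12364776 to 12376572 (Release 6 assembly). GstD10 was at 114, 119.8 and 99.2 CPM in NL prepupae and 309, 308 and 247 CPM in early NL larvae, against 10.8, 12 and 9.32 CPM in ZI prepupae and 104, 109.9 and 121 CPM in early ZI larvae. The gene fell in both populations and much further in ZI, so that the NL and ZI libraries did not overlap at either stage (contrast 2.01 ± 0.27 SE, adjusted p = 0.000351). GstD1, the most counted member of the family in this tissue and an enzyme known for DDT metabolism, was at 501, 509 and 459 CPM in NL prepupae and 866, 887 and 733 CPM in early NL larvae, against 147, 145 and 154 CPM in ZI prepupae and 493, 484 and 559 CPM in early ZI larvae. It showed the same pattern, a smaller drop in NL, with a contrast of 1.03 ± 0.22 (SE, adjusted p = 0.0177) that was lost without NL prepupal replicate 1 and without ZI prepupal replicate 2 (1.01 and an adjusted p of 0.0564 without ZI prepupal replicate 2). GstD3 had 42.9, 40.9 and 39.98 CPM in NL prepupae and 16.3, 13.6 and 15.7 CPM in early NL larvae, against 11.1, 11.4 and 9.03 CPM in ZI prepupae and 11.9, 10.8 and 11.9 CPM in early ZI larvae. It rose in NL alone (contrast 1.57 ± 0.31 SE, adjusted p = 0.0105), a call lost without NL early replicate 2 (1.5 and an adjusted p of 0.0533).

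GstD5 went the other way from GstD10, GstD1 and GstD3. Its levels were 4.22, 4.46 and 5.37 CPM in NL prepupae and 11.3, 14.3 and 11.6 CPM in early NL larvae, against 12.7, 16.1 and 28.6 CPM in ZI prepupae and 2.31, 2.89 and 2.76 CPM in early ZI larvae. NL libraries were thus above ZI libraries in early larvae and below them in prepupae, and the contrast of -4.26 ± 0.55 (SE, adjusted p = 0.000275) held in every fit with 1 library left out. In late larvae, GstD5 was at 2.03, 2.33 and 3.22 CPM in NL and 2.4, 12.9 and 7.42 CPM in ZI, a log2 difference of -1.57 ± 0.40 (SE, adjusted p = 0.00779), while GstD10 stayed higher in NL there, at 188, 136 and 127 CPM against 18.2, 33.9 and 24.3 CPM in ZI (2.56 ± 0.20, adjusted p = 6.63e-08). The 6 other GstD genes tested were not called, with contrasts from -1.30 for GstD6 to 0.21 for GstD4. GstD genes are close copies of one another, and read pairs assigned to several genes had been discarded, so that the values of single members rest on the reads that told them apart.

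Of 83 genes tested in the P450 list, 2 had a positive and 5 a negative contrast (list median 0.10). The list was drawn by gene symbol and took in Cyp1 and Cyp40, which encode cyclophilins rather than P450s. Neither was called (contrasts -0.34 and -0.37). Cyp6g1, the P450 best known for DDT resistance in this species, was also the most abundant of the 184 genes in counts. Its levels were 5062, 5345 and 4740.4 CPM in NL prepupae and 11273, 10844 and 8058 CPM in early NL larvae, against 2455, 1933 and 2069 CPM in ZI prepupae and 1578, 1538 and 1429.5 CPM in early ZI larvae. It fell in NL and rose in ZI, and NL stayed above ZI at both stages (contrast -1.5 ± 0.23 SE, adjusted p = 0.00127). In late larvae Cyp6g1 was at 10788, 7584 and 8557 CPM in NL and 2863, 3212 and 2848 CPM in ZI (1.59 ± 0.17, adjusted p = 2.00e-06). Its neighbour Cyp6g2 moved likewise at far lower counts. Cyp6g2 had 17.7, 19.4 and 19.5 CPM in NL prepupae and 32.4, 28.2 and 24.5 CPM in early NL larvae, against 14, 9.13 and 19.5 CPM in ZI prepupae and 5.23, 6.24 and 9.61 CPM in early ZI larvae (contrast -1.63, adjusted p = 0.0156), with the call lost in 3 of the 12 leave-one-out fits (-1.33 and an adjusted p of 0.055 without ZI prepupal replicate 3). Cyp6g1 (2R, 12185667 to 12188431, forward strand) and Cyp6g2 (2R, 12188338 to 12190377, reverse strand) overlap at their ends, and reads from that overlap may be missing from both counts, since ambiguous read pairs had been discarded and the use of strand is not stated.

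Cyp4aa1 rose in ZI alone, with 3.14, 2.13 and 3.62 CPM in NL prepupae and 3.41, 2.52 and 2.25 CPM in early NL larvae, against 3.89, 6.53 and 6.9 CPM in ZI prepupae and 1.24, 0.788 and 0.836 CPM in early ZI larvae (contrast -2.42 ± 0.38 SE, adjusted p = 0.00132). The other 3 called P450 genes, Cyp6a14, Cyp6d2 and Cyp6d4, are named to complete the list and were chosen after their values were seen. Cyp6a14 fell in ZI alone. It was between 24 and 26.2 CPM in all 6 NL libraries, against 24.6, 23.4 and 24.5 CPM in ZI prepupae and 55.6, 38.6 and 45.5 CPM in early ZI larvae (contrast 0.96 ± 0.17 SE, adjusted p = 0.00502). Cyp6d2 rose in NL alone, to 119, 124 and 118 CPM in NL prepupae against 75.2, 70.6 and 49 CPM in early NL larvae (contrast 1.01, adjusted p = 0.0158), lost without ZI prepupal replicate 2 and without ZI prepupal replicate 3 (0.96 and an adjusted p of 0.0552 without ZI prepupal replicate 2). Cyp12a4, known for resistance to the insect growth regulator lufenuron, had a contrast of -1.2 (adjusted p = 0.0475) that was lost in 10 of the 12 leave-one-out fits (-1.05 and an adjusted p of 0.149 without NL prepupal replicate 3). Cyp6d4, with -0.74 (adjusted p = 0.0448), was lost in 8 of the 12 leave-one-out fits (-0.68 and an adjusted p of 0.127 without ZI early replicate 1).

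All 4 UGT genes called had a negative contrast, out of 34 tested, of which 9 lay above and 25 below 0 (list median -0.27). Ugt35C1 was at 8.3, 9.73 and 6.97 CPM in NL prepupae and 31.7, 40.4 and 28.6 CPM in early NL larvae, against 29.4, 40.2 and 24.2 CPM in ZI prepupae and 23.6, 26.5 and 42.7 CPM in early ZI larvae. Prepupal NL libraries were thus the low group, below all others (contrast -2.03 ± 0.33 SE, adjusted p = 0.00183). The late difference of this gene was -0.75 ± 0.22 (SE, adjusted p = 0.0197), ZI again being higher. Ugt303A1 had 1.2, 1.13 and 1.87 CPM in NL prepupae and 4.52, 6.38 and 5.68 CPM in early NL larvae, against 2.1, 2.16 and 2.83 CPM in ZI prepupae and 2.63, 2.76 and 2.63 CPM in early ZI larvae. Here the early NL libraries stood alone as the high group (contrast -1.78 ± 0.31 SE, adjusted p = 0.00386). Ugt49B1 and Ugt37B1 had contrasts of -1.07 and -1.76 (adjusted p = 0.0293 and 0.0333). The call of Ugt49B1 was lost in 7 of the 12 leave-one-out fits (-0.93 and an adjusted p of 0.0984 without NL prepupal replicate 3), and that of Ugt37B1 lost in 8 of the 12 leave-one-out fits (-1.35 and an adjusted p of 0.12 without NL early replicate 2). Esterases break ester bonds in toxic compounds and lipids, and the adjacent genes alpha-Est4 and alpha-Est5, which are in no list and were chosen after their values were seen, fell further in NL. alpha-Est4 had 4.57, 3.26 and 3.1 CPM in NL prepupae and 20.2, 24.5 and 20.2 CPM in early NL larvae, against 2.25, 2.21 and 2.83 CPM in ZI prepupae and 5.73, 5.42 and 4.85 CPM in early ZI larvae (contrast -1.43 ± 0.28 SE, adjusted p = 0.0108). For alpha-Est5 the contrast was -1 (adjusted p = 0.0472), lost in 10 of the 12 leave-one-out fits (-0.94 and an adjusted p of 0.144 without NL prepupal replicate 1). CHKov1, likewise chosen after its values were seen and known for alleles that alter insecticide and virus resistance, rose in NL alone. It was at 60.2, 70.2 and 53.3 CPM in NL prepupae and 30.8, 30.7 and 26 CPM in early NL larvae, against 30.3, 16.3 and 20.7 CPM in ZI prepupae and 26.1, 30.7 and 31.6 CPM in early ZI larvae (contrast 1.46 ± 0.26 SE, adjusted p = 0.00519).

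**Figure D3:**
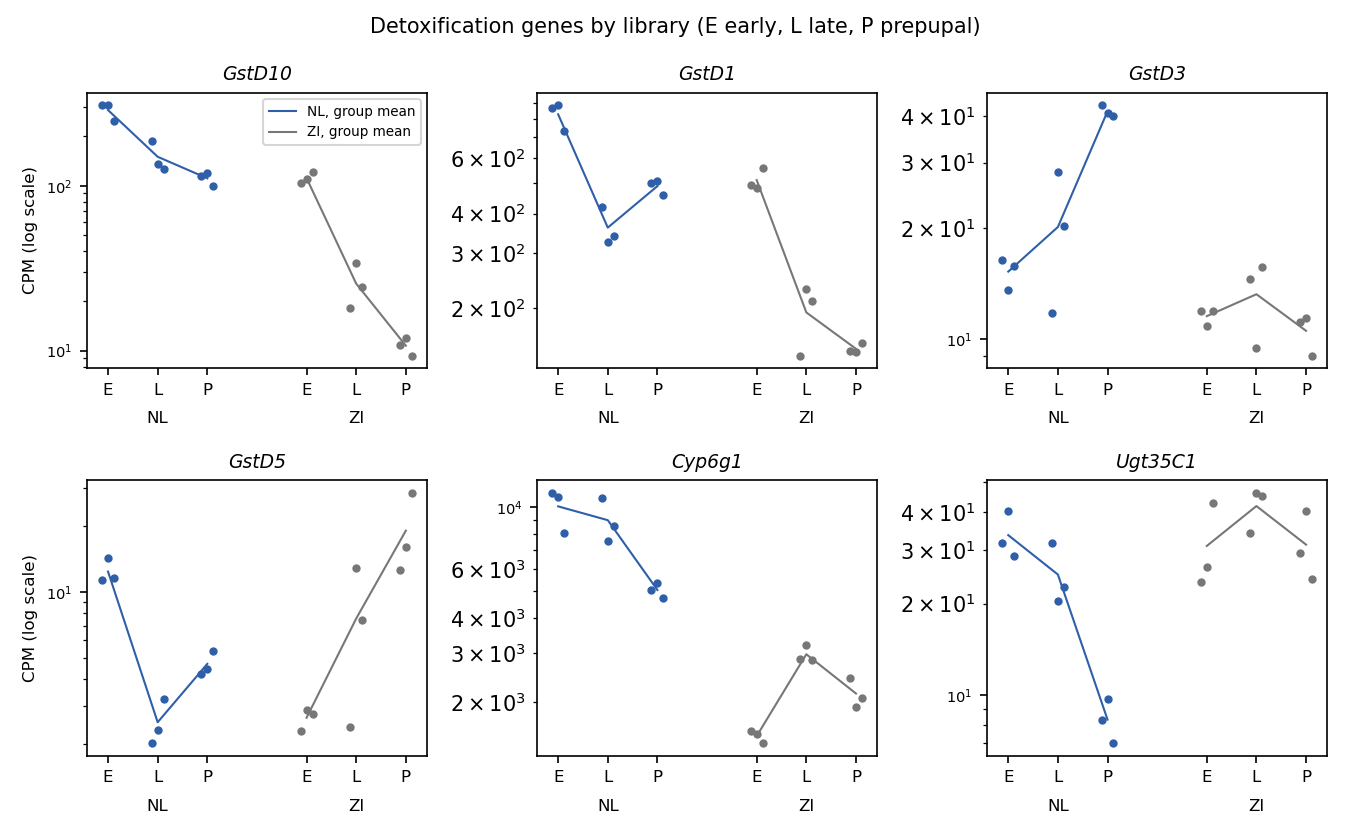
CPM on a log scale (y axis) by stage (E early, L late, P prepupal) for 6 detoxification genes, 1 point per library and lines through the group means, NL in blue on the left and ZI in grey on the right of each panel. GstD10 falls further in ZI, GstD5 and Cyp6g1 fall in NL and rise in ZI from early to prepupal, and Ugt35C1 is lowest in the 3 prepupal NL libraries.

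Genes of the humoral immune response were called in both directions. Serine proteases and their inactive homologs relay Toll and melanisation signals in the hemolymph, and CG10764 and SPH93, a protease and a protease homolog, rose more in NL. CG10764 was at 126, 122 and 97.3 CPM in NL prepupae and 12.8, 12.7 and 7.69 CPM in early NL larvae, against 178, 147 and 131 CPM in ZI prepupae and 84.5, 90.3 and 108 CPM in early ZI larvae. Early NL libraries formed the low group, and NL prepupae lay just below ZI prepupae (contrast 2.69 ± 0.30 SE, adjusted p = 9.43e-05). SPH93 was at 1085, 1164 and 1038 CPM in NL prepupae and 193, 213 and 177 CPM in early NL larvae, against 1549, 1491 and 1243 CPM in ZI prepupae and 1426, 989.9 and 1191 CPM in early ZI larvae. NL prepupae came near the level that ZI showed at both stages (contrast 2.25 ± 0.35 SE, adjusted p = 0.00127). In late larvae both were still lower in NL, by log2 differences of -1.54 ± 0.21 for CG10764 and -1.44 ± 0.25 for SPH93 (adjusted p = 4.99e-05 and 0.000437).

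A second kind of immune gene was high in early ZI larvae and low elsewhere. BomT3, a Bomanin, one of the short peptides through which Toll signalling acts against infection, was at 1.23, 0.753 and 1.23 CPM in NL prepupae and 1.15, 1.89 and 0.173 CPM in early NL larvae, against 0.629, 0.442 and 0.577 CPM in ZI prepupae and 17.9, 9.1 and 8.98 CPM in early ZI larvae (contrast 4.51 ± 0.83 SE, adjusted p = 0.0061). CG18754, annotated as a serine protease, had 1.11, 1 and 1.21 CPM in NL prepupae and 1.07, 2.2 and 1.87 CPM in early NL larvae, against 2.01, 1.62 and 1.15 CPM in ZI prepupae and 60.3, 48.2 and 53.1 CPM in early ZI larvae (contrast 4.48 ± 1.05 SE, adjusted p = 0.0328). Although early ZI larvae stood far above every other group, this call was lost in all 12 leave-one-out fits (4.41 and an adjusted p of 0.122 without NL prepupal replicate 3). The late ZI libraries of CG18754 were at 22.1, 2.75 and 1.13 CPM, a spread that enters its error. Tep1, a complement-like thioester protein, had 25.4, 35 and 30.5 CPM in NL prepupae and 65.7, 88.5 and 80.8 CPM in early NL larvae, against 56.8, 53.2 and 38.5 CPM in ZI prepupae and 481, 499 and 641 CPM in early ZI larvae. Its contrast of 2.07 (adjusted p = 0.0424) was lost in all 12 leave-one-out fits (1.95 and an adjusted p of 0.138 without NL early replicate 1). Of 12 Bomanins tested, BomT3 alone was called, and 11 contrasts were above 0 (list median 1.07).

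PGRP-SB1, a secreted peptidoglycan recognition protein with amidase activity, rose in ZI alone. It was at 46.3, 56.4 and 62.1 CPM in NL prepupae and 36.8, 89.97 and 56.8 CPM in early NL larvae, against 223, 213 and 185 CPM in ZI prepupae and 19.3, 25.7 and 43.7 CPM in early ZI larvae, so that prepupal ZI libraries formed a high group apart from all others (contrast -2.97 ± 0.40 SE, adjusted p = 0.000351). The late libraries showed the same gap, with 22, 37.5 and 34.6 CPM in NL and 188, 184 and 203 CPM in ZI (-2.61 ± 0.29, adjusted p = 4.55e-06). It was the 1 gene called among 38 Toll and Imd recognition and signalling genes tested. Among 21 antimicrobial peptide genes 1 was called in each direction, and 7 contrasts lay above and 14 below 0 (list median -1.25). Drs, the gene of the antifungal peptide drosomycin, was at 421, 516 and 436 CPM in NL prepupae and 105, 156 and 85.1 CPM in early NL larvae, against 1149.7, 1306 and 907 CPM in ZI prepupae and 672, 537 and 756 CPM in early ZI larvae. It rose in both populations and was lower in NL throughout (contrast 1.21 ± 0.30 SE, adjusted p = 0.0466), with the call lost in 11 of the 12 leave-one-out fits (1.13 and an adjusted p of 0.151 without NL early replicate 1). The infection-induced peptide gene edin had 2.14, 3.77 and 5.91 CPM in NL prepupae and 2.43, 13.6 and 9.46 CPM in early NL larvae, against 3.92, 5.99 and 6.33 CPM in ZI prepupae and 1.01, 1.45 and 2.34 CPM in early ZI larvae (contrast -2.89 ± 0.65 SE, adjusted p = 0.0251). NL early replicate 1 lay well below the other early NL libraries, and the call was lost in 8 of the 12 leave-one-out fits (-2.38 and an adjusted p of 0.114 without NL early replicate 2).

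PPO1 and PPO2 encode the prophenoloxidases of crystal cells, blood cells that melanise wounds, and both fell further in ZI. PPO1 was at 9.12, 20.8 and 13.4 CPM in NL prepupae and 49.1, 49.5 and 50.4 CPM in early NL larvae, against 3.92, 3.24 and 3.54 CPM in ZI prepupae and 51.7, 40.1 and 43.7 CPM in early ZI larvae (contrast 1.85 ± 0.40 SE, adjusted p = 0.0181). Prepupal libraries did not overlap, NL being higher, while early libraries of the populations did. PPO2 had 9.91, 20.7 and 14.1 CPM in NL prepupae and 55, 55.1 and 56.2 CPM in early NL larvae, against 5.78, 4.13 and 5.2 CPM in ZI prepupae and 57, 42.5 and 49.3 CPM in early ZI larvae (contrast 1.38 ± 0.31 SE, adjusted p = 0.0224). NL prepupal replicate 2 was the highest NL prepupal library for both genes. The call of PPO1 was lost in 6 of the 12 leave-one-out fits (1.51 and an adjusted p of 0.0604 without NL prepupal replicate 2), and that of PPO2 lost in 5 of the 12 leave-one-out fits (1.26 and an adjusted p of 0.0803 without ZI prepupal replicate 2). These were the 2 genes called among 11 hemocyte markers tested, whose median contrast was 0.03 and of which none was at 0 in any group. The markers summed to between 349 and 416 CPM in NL prepupae and 1272 and 1293 CPM in early NL larvae, against 336 to 398 CPM in ZI prepupae and 752 to 961 CPM in early ZI larvae. The sums follow Nplp2 and srp most, with means of 343 and 165 CPM over the 12 libraries of the contrast. Hml had a mean of 48.5 CPM and eater of 5.26 CPM, so that the sums are no measure of blood cell content. In bulk tissue, fewer cells of a type and less RNA per cell cannot be told apart, and the part of blood cells in the PPO1 and PPO2 contrasts was not tested.

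Sugar metabolism gave some of the clearest contrasts. Mal-A1, a maltase that splits disaccharides, was at 1.93, 1.38 and 2.15 CPM in NL prepupae and 1.96, 1.71 and 1.77 CPM in early NL larvae, against 5.69, 3.29 and 3.7 CPM in ZI prepupae and 28.9, 29.8 and 33.1 CPM in early ZI larvae. Early ZI larvae were the high group, and every NL library was below every ZI library of its stage (contrast 2.89 ± 0.28 SE, adjusted p = 1.56e-05). In late larvae Mal-A1 was at 2.81, 2.07 and 2.3 CPM in NL and 4.37, 4.53 and 5.75 CPM in ZI (-1.03 ± 0.19, adjusted p = 0.000911). Maltases are also made in the gut. The 19 gut markers tested, none called, summed to between 13.6 and 21.3 CPM in NL prepupae and 25.4 and 184 CPM in early NL larvae, against 11.8 to 18.8 CPM in ZI prepupae and 18.3 to 75.7 CPM in early ZI larvae. The highest early sums were those of replicate 3 in each population, and the part of gut tissue in the Mal-A1 contrast was not tested. Treh, the gene of trehalase, which splits the blood sugar trehalose into glucose, was at 37.4, 38.5 and 35.1 CPM in NL prepupae and 76, 82.2 and 67.3 CPM in early NL larvae, against 27.9, 22.7 and 24.1 CPM in ZI prepupae and 99.6, 98.5 and 109 CPM in early ZI larvae. It fell less in NL (contrast 1.02 ± 0.19 SE, adjusted p = 0.00761). Inos, the first enzyme of inositol synthesis, had 9.35, 11.4 and 9.38 CPM in NL prepupae and 189.7, 206 and 189 CPM in early NL larvae, against 6.83, 4.13 and 6.38 CPM in ZI prepupae and 17.3, 22.4 and 17.5 CPM in early ZI larvae. Early NL libraries were the high group by a wide margin (contrast -2.58 ± 0.49 SE, adjusted p = 0.00742), and the late difference was 1.62 ± 0.34 (SE, adjusted p = 0.00203), NL again being higher. These were the 3 genes called of 35 in the list of sugar, glycogen and inositol metabolism, in which 12 contrasts lay above and 23 below 0 (median -0.50).

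**Figure D4:**
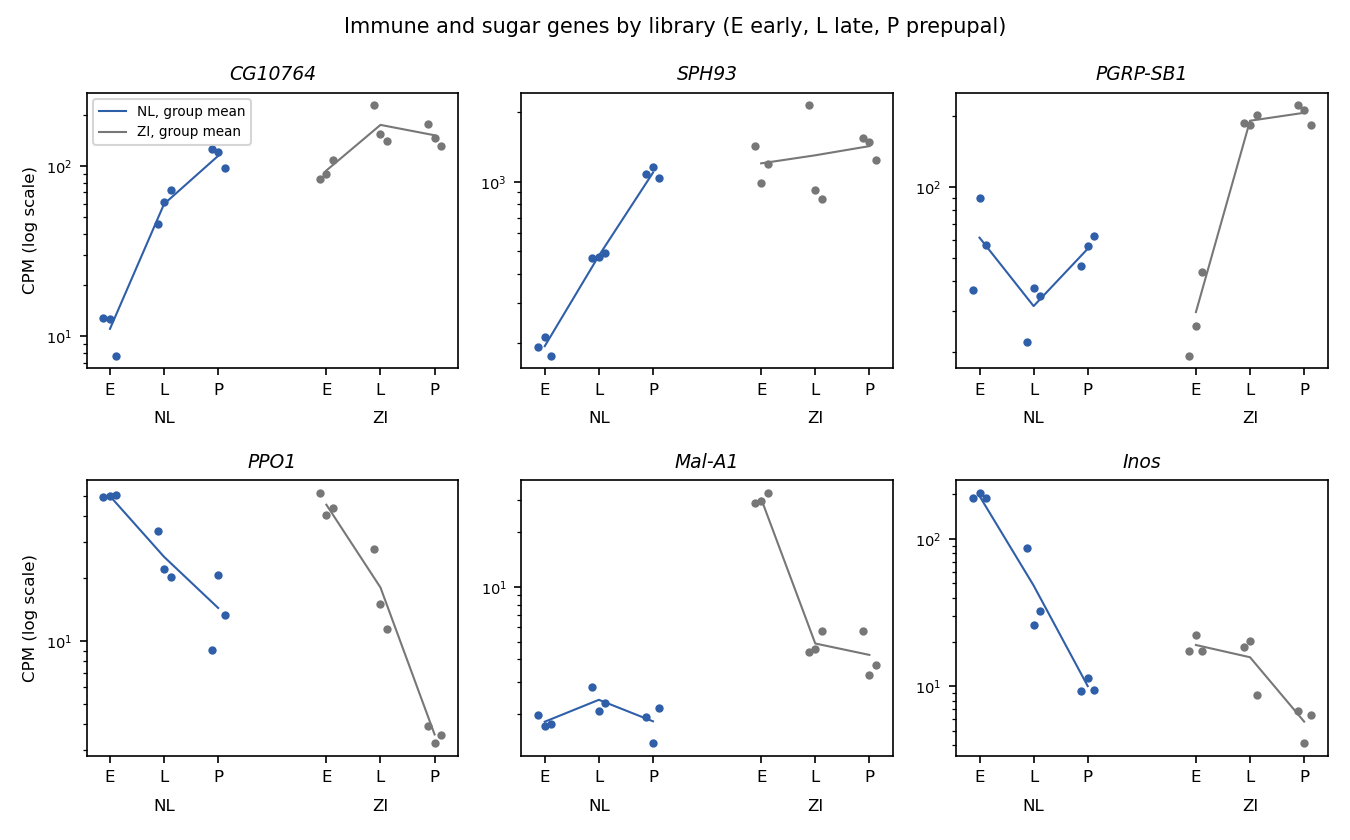
CPM on a log scale (y axis) by stage (E early, L late, P prepupal) for 6 immune and sugar genes, 1 point per library and lines through the group means, NL in blue on the left and ZI in grey on the right of each panel. CG10764 and SPH93 climb in NL to near the ZI level, PGRP-SB1 climbs in ZI only, and Mal-A1 and Inos stand out in the early libraries of ZI and NL.

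Other metabolic genes were called singly. Men, the malic enzyme that supplies NADPH for fat synthesis, was at 284, 373 and 455 CPM in NL prepupae and 792, 955 and 734 CPM in early NL larvae, against 642, 628 and 622 CPM in ZI prepupae and 410.3, 454 and 572 CPM in early ZI larvae. It fell in NL with no call in ZI (contrast -1.55 ± 0.34 SE, adjusted p = 0.0197), the call being lost in 5 of the 12 leave-one-out fits (-1.39 and an adjusted p of 0.0713 without NL prepupal replicate 1). It was the only gene called among 21 of fatty acid and triglyceride synthesis (list median -0.30). Faa encodes fumarylacetoacetase, the last enzyme of tyrosine breakdown. It was at 4.75, 4.52 and 3.07 CPM in NL prepupae and 36.3, 31.2 and 53.6 CPM in early NL larvae, against 1.32, 1.47 and 2.13 CPM in ZI prepupae and 3.34, 2.2 and 3.09 CPM in early ZI larvae, with a contrast of -2.52 (adjusted p = 0.0105), lost without ZI prepupal replicate 3 (-2.26 and an adjusted p of 0.0564). The next genes are in no list and were chosen after their values were seen. LKRSDH, which starts lysine breakdown, and Alas, which makes the first precursor of heme, fell further in NL, with contrasts of -1.37 and -1.2 (adjusted p = 0.0148 and 0.0268). The call of LKRSDH was lost without NL prepupal replicate 1 (-1.3 and an adjusted p of 0.0528), and that of Alas lost in 7 of the 12 leave-one-out fits (-1.18 and an adjusted p of 0.0786 without NL prepupal replicate 3). Glut1, a glucose transporter, rose in both populations. It was at 149.6, 125 and 138 CPM in NL prepupae and 20.1, 18.9 and 14.1 CPM in early NL larvae, against 136, 119 and 127 CPM in ZI prepupae and 28.5, 37.2 and 29 CPM in early ZI larvae, with early NL libraries lowest (contrast 0.95, adjusted p = 0.0158), the call being lost in 3 of the 12 leave-one-out fits (0.81 and an adjusted p of 0.0657 without ZI early replicate 2). Nmdmc, an enzyme of mitochondrial folate metabolism and among the most counted of the positive genes, had 369, 404 and 380.04 CPM in NL prepupae and 20.3, 23.1 and 18.9 CPM in early NL larvae, against 431, 447 and 518 CPM in ZI prepupae and 48.6, 55.2 and 61 CPM in early ZI larvae (contrast 1.13, adjusted p = 0.0272), lost in 9 of the 12 leave-one-out fits (1.09 and an adjusted p of 0.0888 without NL early replicate 1).

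CG5697 and CG34206 rose in both populations by far more than they differed between them. CG5697 was at 1016, 1092 and 994 CPM in NL prepupae and 11, 7.28 and 7.17 CPM in early NL larvae, against 1355, 1197 and 1107 CPM in ZI prepupae and 2.1, 2.63 and 2.3 CPM in early ZI larvae. The prepupal NL libraries were slightly below the ZI ones, and the early NL libraries were above the early ZI ones (contrast -2.09 ± 0.27 SE, adjusted p = 0.000275, beside changes of 6.93 in NL and 9.02 in ZI). CG34206 repeated this, with 791, 766 and 639 CPM in NL prepupae and 4.01, 4 and 4.33 CPM in early NL larvae, against 814, 733 and 662 CPM in ZI prepupae and 1.83, 1.48 and 2.05 CPM in early ZI larvae (contrast -1.22 ± 0.23 SE, adjusted p = 0.00873). Mmp1, the secreted matrix metalloprotease that cuts basement membrane as fat body cells let go of one another, was at 101, 124 and 95.4 CPM in NL prepupae and 3.76, 4.31 and 6.24 CPM in early NL larvae, against 89.1, 71.8 and 61.4 CPM in ZI prepupae and 9.67, 13.4 and 10.5 CPM in early ZI larvae. Every NL library was above every ZI library in prepupae and below it in early larvae (contrast 1.75 ± 0.32 SE, adjusted p = 0.00579), the only call among 15 basement membrane and remodelling genes. Strica, a caspase, was the only call among 9 cell death genes. It rose by 0.58 in NL and by 1.39 in ZI on the log2 scale, from a higher early level in NL. Its contrast of -0.81 (adjusted p = 0.0369) was lost in 8 of the 12 leave-one-out fits (-0.72 and an adjusted p of 0.117 without NL early replicate 1). Hsc70-4, the constitutive chaperone, had 899, 985 and 949.5 CPM in NL prepupae and 1519.5, 1472 and 1137 CPM in early NL larvae, against 1379, 1277 and 1343 CPM in ZI prepupae and 1144, 1096 and 1020.5 CPM in early ZI larvae (contrast -0.84, adjusted p = 0.0293), lost in 6 of the 12 leave-one-out fits (-0.8 and an adjusted p of 0.101 without NL prepupal replicate 1). Every NL prepupal library of Hsc70-4 lay below the early NL ones, and every ZI prepupal library above the early ZI ones.

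The smallest p of all genes was that of Tsp42Eg, which encodes a tetraspanin, a membrane protein. It was at 1.38, 1.38 and 1.38 CPM in NL prepupae and 27.6, 25 and 24.6 CPM in early NL larvae, against 0.629, 0.786 and 0.577 CPM in ZI prepupae and 1.15, 0.821 and 1 CPM in early ZI larvae. The 3 early NL libraries were far above all others, and late NL larvae, at 2.27, 3.08 and 2.57 CPM, were nearer to the prepupal than to the early level (contrast -3.61 ± 0.26 SE, adjusted p = 1.69e-07). Peritrophin-A, a chitin-binding protein chosen after its values were seen, had the same shape, with 1.32, 0.942 and 2.18 CPM in NL prepupae and 8.37, 13.2 and 11.6 CPM in early NL larvae, against 1.05, 0.982 and 1.36 CPM in ZI prepupae and 1.71, 2.1 and 1.3 CPM in early ZI larvae (contrast -2.27 ± 0.39 SE, adjusted p = 0.00328). It lies beside obst-A on the X chromosome, another chitin-binding gene, which rose in ZI alone (contrast -1.31, adjusted p = 0.0215), lost in 7 of the 12 leave-one-out fits (-1.2 and an adjusted p of 0.0708 without ZI prepupal replicate 2). obst-A was the 1 gene called among 6 tracheal markers, which summed to between 38.6 and 45.2 CPM in NL prepupae and 18.9 and 25.8 CPM in early NL larvae, against 47.0 to 52.0 CPM in ZI prepupae and 23.1 to 25.4 CPM in early ZI larvae, and none of which was at 0 in any group. The contrasts of 3 of these markers lay above 0 and those of 3, obst-A among them, below 0 (list median 0.006). The part of tracheal cells in the obst-A contrast was not tested. CG10814 had the contrast farthest below 0, at -5.29 ± 1.11 (SE, adjusted p = 0.0157), with 14.6, 15.3 and 12.6 CPM in NL prepupae and 167, 137 and 136 CPM in early NL larvae, against 39.5, 1.82 and 2.1 CPM in ZI prepupae and 2.39, 4.11 and 5.35 CPM in early ZI larvae. ZI prepupal replicate 1 stood apart from the other ZI prepupal libraries, and the call was lost in 4 of the 12 leave-one-out fits (-2.4 and an adjusted p of 0.152 without ZI prepupal replicate 1). Dlish, an adaptor of the Fat and Hippo pathway, had 1.99, 5.4 and 0.89 CPM in NL prepupae and 15, 11.4 and 8.04 CPM in early NL larvae, against 0.809, 0.884 and 1.18 CPM in ZI prepupae and 0.68, 0.821 and 0.418 CPM in early ZI larvae (contrast -2.73, adjusted p = 0.0351), lost in 9 of the 12 leave-one-out fits (-2.53 and an adjusted p of 0.125 without ZI prepupal replicate 3).

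High levels in early ZI larvae marked several other positive genes. cyr was at 1.47, 2.39 and 1.55 CPM in NL prepupae and 0.555, 0.898 and 1.56 CPM in early NL larvae, against 5.27, 2.75 and 3.46 CPM in ZI prepupae and 37.8, 17.9 and 11.3 CPM in early ZI larvae (contrast 3.28 ± 0.59 SE, adjusted p = 0.00502). mael, a gene of transposon silencing in the germline, had 1.55, 0.691 and 1.75 CPM in NL prepupae and 2.35, 0.988 and 2.15 CPM in early NL larvae, against 2.19, 3.14 and 2.73 CPM in ZI prepupae and 16, 29.8 and 19.8 CPM in early ZI larvae (contrast 2.65 ± 0.51 SE, adjusted p = 0.00922). Late ZI larvae were at 7.15, 17.1 and 7.81 CPM, with overlap of the early ZI libraries. The 9 female gonad markers, none called, summed to between 370 and 465 CPM in NL prepupae and 385 and 446 CPM in early NL larvae, against 270 to 329 CPM in ZI prepupae and 317 to 364 CPM in early ZI larvae, sums that overlapped between ZI prepupae and early ZI larvae. Their contrasts lay above 0 for 8 markers, as for mael, and below 0 for 1 (list median 0.415). The part of gonad tissue in the mael contrast was not tested. CG9981 had 2.78, 2.26 and 2.38 CPM in NL prepupae and 2.3, 2.78 and 2.95 CPM in early NL larvae, against 3.38, 3.24 and 4.25 CPM in ZI prepupae and 39, 15.3 and 24.2 CPM in early ZI larvae (contrast 2.74 ± 0.39 SE, adjusted p = 0.000658), and hlk had 24.5, 24.8 and 15.2 CPM in NL prepupae and 22.9, 17.7 and 21.9 CPM in early NL larvae, against 17.9, 17.2 and 22.1 CPM in ZI prepupae and 73.9, 59.6 and 58.9 CPM in early ZI larvae (contrast 1.78 ± 0.25 SE, adjusted p = 0.00069). In both, the early ZI libraries were the high group and the other 3 groups overlapped or lay close together. CG6839 showed the same order, with 14, 48.6 and 32.4 CPM in early ZI larvae and no more than 4.89 CPM elsewhere in the contrast, but with a wide spread (contrast 3.39 ± 0.73 SE, adjusted p = 0.018), the call being lost in 7 of the 12 leave-one-out fits (3.08 and an adjusted p of 0.106 without NL prepupal replicate 1).

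In 21 genes the change was called in NL and in ZI, in opposite directions. CBP, a calcium-binding protein, was at 4.02, 4.46 and 3.42 CPM in NL prepupae and 1.07, 2.25 and 1.18 CPM in early NL larvae, against 7.64, 7.37 and 5.62 CPM in ZI prepupae and 18.2, 12.7 and 19.2 CPM in early ZI larvae. ZI was higher at both stages, by less in prepupae than in early larvae (contrast 2.69 ± 0.35 SE, adjusted p = 0.000275). Sk1, a sphingosine kinase, had 3.9, 4.33 and 4.91 CPM in NL prepupae and 1.71, 2.29 and 2.15 CPM in early NL larvae, against 4.37, 4.52 and 4.3 CPM in ZI prepupae and 9.75, 7.72 and 8.9 CPM in early ZI larvae. The populations met at the prepupal stage (contrast 2.1 ± 0.26 SE, adjusted p = 0.000275). t, the pigmentation gene tan, whose product frees dopamine from its beta-alanine conjugate, had 18.8, 14 and 11.5 CPM in NL prepupae and 10.03, 7.41 and 6.96 CPM in early NL larvae, against 6.95, 5.16 and 4.65 CPM in ZI prepupae and 7.92, 11.1 and 12.5 CPM in early ZI larvae, so that NL was higher in prepupae only (contrast 1.77 ± 0.30 SE, adjusted p = 0.0028). CG33301 had 4.13, 6.4 and 3.27 CPM in NL prepupae and 16, 11.4 and 13.2 CPM in early NL larvae, against 23.4, 51 and 56.9 CPM in ZI prepupae and 13, 24.4 and 12.5 CPM in early ZI larvae (contrast -2.99 ± 0.54 SE, adjusted p = 0.00519). Early libraries overlapped and prepupal ones did not, and the late ones repeated the prepupal gap, with 6.54, 5.79 and 3.22 CPM in NL and 18.9, 50.1 and 22.3 CPM in ZI (-2.55 ± 0.39, adjusted p = 0.00015). CG15126 had the contrast farthest above 0, 4.81 ± 1.13 (SE, adjusted p = 0.0328), at very low levels. It was at 0.41, 0.188 and 0.373 CPM in NL prepupae and 0, 0.0898 and 0.0693 CPM in early NL larvae, against 0.3, 0.491 and 0.262 CPM in ZI prepupae and 2.78, 1.45 and 0.418 CPM in early ZI larvae, and the call was lost in 10 of the 12 leave-one-out fits (4.27 and an adjusted p of 0.108 without NL early replicate 1).

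Further genes among those of smallest p or largest contrast showed the same few shapes. CG17270 was at 4.49, 4.83 and 4.02 CPM in NL prepupae and 4.35, 4.45 and 3.47 CPM in early NL larvae, against 12.5, 16.5 and 13.4 CPM in ZI prepupae and 3.04, 3.25 and 2.17 CPM in early ZI larvae. Prepupal ZI libraries were the high group (contrast -2.19 ± 0.28 SE, adjusted p = 0.000275), and the late libraries repeated the gap, with 3.91, 2.59 and 4.63 CPM in NL and 16.2, 13.8 and 17.5 CPM in ZI (-2.1 ± 0.19, adjusted p = 4.68e-07). CG2003 had 17.5, 20.2 and 15.6 CPM in NL prepupae and 16.3, 15.9 and 17.7 CPM in early NL larvae, against 15.5, 15.5 and 15 CPM in ZI prepupae and 4.35, 5.52 and 2.8 CPM in early ZI larvae, so that early ZI libraries alone were low (contrast -1.76 ± 0.22 SE, adjusted p = 0.000275). In CG9380 the early NL libraries stood alone as the high group, with 14.4, 18.1 and 16.3 CPM in NL prepupae and 43.5, 68.1 and 60.3 CPM in early NL larvae, against 8.45, 6.38 and 6.33 CPM in ZI prepupae and 8.69, 9 and 8.19 CPM in early ZI larvae (contrast -1.53 ± 0.22 SE, adjusted p = 0.00069). CG43750 (contrast -1.56 ± 0.23 SE, adjusted p = 0.00109) and msb1l (contrast -1.7 ± 0.26 SE, adjusted p = 0.00127) likewise had their highest levels in the early NL libraries, at 12.1, 12.6 and 12.6 CPM and 7, 7.46 and 6.76 CPM. CG9512 fell in both populations and further in NL (contrast -1.38 ± 0.20 SE, adjusted p = 0.000715).

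On the positive side, CG46339 was at 21.8, 33.7 and 22.2 CPM in NL prepupae and 34.1, 31.1 and 36.2 CPM in early NL larvae, against 7.67, 9.53 and 9.61 CPM in ZI prepupae and 31.2, 34.5 and 34.2 CPM in early ZI larvae. Prepupal ZI libraries were the low group (contrast 1.5 ± 0.23 SE, adjusted p = 0.00109). ana3, a centriole gene, had 4.9, 4.71 and 4.71 CPM in NL prepupae and 3.84, 3.19 and 2.98 CPM in early NL larvae, against 6.2, 5.99 and 6.06 CPM in ZI prepupae and 12.6, 10.7 and 12.6 CPM in early ZI larvae, with early ZI libraries highest (contrast 1.49 ± 0.21 SE, adjusted p = 0.000623), and CG1801 was likewise highest there (contrast 1.49 ± 0.23 SE, adjusted p = 0.00143). hdly was lowest in the early NL libraries, at 6.02, 5.48 and 5.61 CPM, and rose in NL alone (contrast 1.44 ± 0.21 SE, adjusted p = 0.000904). The 10 genes from CG17270 to hdly kept their call in all 12 leave-one-out fits. CG33461 and CG10089 were highest in the early ZI libraries, at 8.72, 7.72 and 10.03 CPM and 15, 4.86 and 6.06 CPM, with contrasts of 2.7 and 2.56 (adjusted p = 0.0181 and 0.0239). The call of CG33461 was lost in 4 of the 12 leave-one-out fits (2.56 and an adjusted p of 0.0891 without NL prepupal replicate 3) and that of CG10089 lost in 8 of the 12 leave-one-out fits (2.38 and an adjusted p of 0.104 without NL early replicate 2). CG4467 fell in NL alone, with a contrast of -2.29 (adjusted p = 0.047) that was lost in 10 of the 12 leave-one-out fits (-2.19 and an adjusted p of 0.131 without NL prepupal replicate 1). The most counted members of the lists included 38 genes that were not called, with contrasts from -1.95 for Jon65Aiv, a gut protease gene, to 0.52 for sad, an ecdysone synthesis gene.

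Yp1 was the only gene called among the 14 storage and carrier genes, whose median contrast was 0.06. Yp1 encodes a yolk protein that the adult female fat body secretes. It was at 7.89, 8.04 and 6.54 CPM in NL prepupae and 6.74, 4.27 and 7.38 CPM in early NL larvae, against 1.2, 2.11 and 1.84 CPM in ZI prepupae and 10.3, 4.47 and 3.55 CPM in early ZI larvae (contrast 2.14 ± 0.46 SE, adjusted p = 0.0172), the call being lost in 3 of the 12 leave-one-out fits (1.93 and an adjusted p of 0.0671 without ZI prepupal replicate 1). NL prepupae were above ZI prepupae while early libraries overlapped, and late NL larvae, at 14.1, 10.9 and 14 CPM, were above late ZI larvae, at 1.91, 2.9 and 1.43 CPM (2.66 ± 0.33, adjusted p = 1.64e-05). The antisense RNA asRNA:CR45601 overlaps Yp1 on the other strand and moved with it (contrast 2.72, adjusted p = 0.0169), its call being lost in 5 of the 12 leave-one-out fits (2.54 and an adjusted p of 0.0618 without ZI prepupal replicate 1). The use of strand in the counting is not stated, so that reads of the pair may not have been told apart. The larval serum proteins (Lsp) and fat body proteins (Fbp), the main stores of this tissue, had contrasts between -0.26 for Fbp2 and 0.15 for Lsp1alpha, none called.

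**Figure D5:**
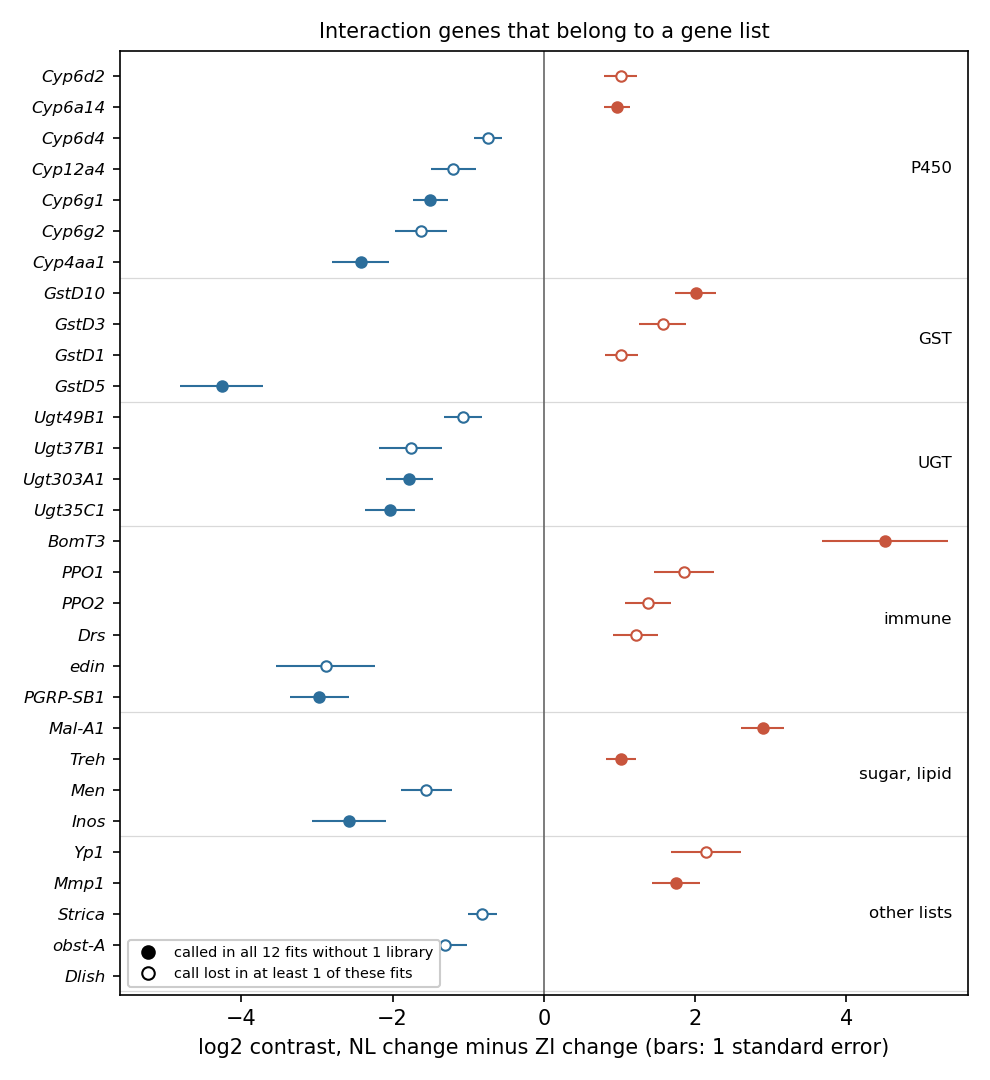
Log2 contrast (x axis, NL change minus ZI change) with its standard error for 30 called genes that belong to a gene list, grouped by list and coloured by sign. Filled points kept their call in all 12 fits that left out 1 library and open points lost it in at least 1. The 4 UGT genes lie below 0, and the GST, P450 and immune genes lie on both sides.

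No gene was called in the lists that follow the hormonal programme itself, beside 1.48% of all genes tested. At that share, lists of the sizes given here can hold no call without standing apart from other genes. The absence is therefore no result about these lists. Of 28 ecdysone response genes tested, 20 rose and 5 fell in NL, and 20 rose and 5 fell in ZI, and the median contrast was 0.13 beside -0.02 over all genes. Likewise no call fell among 26 autophagy genes, of which 13 rose in NL and 14 in ZI and 21 had a contrast below 0, among 41 proteasome genes, of which 21 rose in NL and 29 in ZI and 34 lay below 0, or among 71 oxidative phosphorylation genes, of which 62 fell in each population and 63 lay below 0. Cytosolic ribosomal protein genes fell in both populations, 83 of 88 in NL and 73 of 88 in ZI, without a called contrast, although 86 of the 88 contrasts lay below 0 (list median -0.22). The list medians were -0.22 for oxidative phosphorylation, -0.18 for the proteasome and -0.11 for autophagy, and these lists were not tested as sets. Signs of contrasts this near 0 can depend on the scaling. The median over all genes was -0.018 in the main fit and 0.071 with upper-quartile scaling. None of 17 heat shock, 18 insulin and TOR, 9 juvenile hormone, 20 DNA replication and 9 clock genes was called either. A missed call does not show equal change, and at 3 libraries a group the standard errors above give the size of contrast that could pass.

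By gene class, 178 of the called genes were protein-coding, 1.53% of the 11621 tested, and 6 were lncRNAs, 0.73% of 827. The most stable lncRNA was lncRNA:CR45588, at 0.205, 0.314 and 0.603 CPM in NL prepupae and 1.79, 2.34 and 2.39 CPM in early NL larvae, against 0.599, 0.982 and 0.761 CPM in ZI prepupae and 0.414, 0.46 and 0.334 CPM in early ZI larvae, which fell in NL and rose in ZI (contrast -3.4 ± 0.49 SE, adjusted p = 0.00069). The antisense RNAs asRNA:CR43964 and asRNA:CR45485 had contrasts of -2.28 and 1.06 (adjusted p = 0.0328 and 0.0334), and lncRNA:CR45138 had -1.44 (adjusted p = 0.0256). The call of asRNA:CR43964 was lost in 7 of the 12 leave-one-out fits (-2.04 and an adjusted p of 0.12 without NL prepupal replicate 3), that of asRNA:CR45485 lost in 5 of the 12 leave-one-out fits (0.85 and an adjusted p of 0.11 without ZI early replicate 1), and that of lncRNA:CR45138 lost in 7 of the 12 leave-one-out fits (-1.31 and an adjusted p of 0.0961 without NL prepupal replicate 3). Calls were spread over the large chromosome arms, with 46 genes on 2R (1.81% of those tested there), 48 on 3R (1.54%), 38 on X (1.9%), 30 on 2L (1.3%) and 22 on 3L (0.92%), and none of 86 tested on chromosome 4. Another called gene lay within 10 kb of 24 of the called genes (13.0%), against 7.4% of all genes tested. Besides the GstD, Cyp6g, alpha-Est and obst-A neighbours, these were sick and CG13962, Treh and CG34396, CG30286 and CG33226, Dab and PGRP-SB1, CG3281 and aurA, CG33099 and CG33093, and Yp1 with its antisense RNA. The call was lost in 11 of the 12 leave-one-out fits for sick, 10 for CG30286, 8 for CG33099, 2 for CG33093 and 1 for CG3281. That of CG33226 was lost in 9 (1.28 and an adjusted p of 0.0996 without ZI early replicate 3). Exons of 54 called genes (29.3%) overlap those of a gene on the opposite strand, and for these the source of the reads is uncertain. The share with such an overlap among all genes tested was not counted, so the 54 cannot be set against it.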

How the data were processed

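RNA was taken from pools of dissected female fat bodies and sequenced after ribosomal depletion. The deposited values were raw read counts per gene, which the authors made from reads mapped to the transcriptome of FlyBase release 6.21 with NextGenMap, leaving out read pairs assigned to more than a single gene or transcript, and whole numbers are kept as deposited. Whether strand was used in the counting is not given in the sources used here. Genes with a mean count of at least 15 over the 18 libraries entered a fit in edgeR 4.0.16 (R 4.3.3) with TMM factors and 1 coefficient for each of 6 groups of population and stage. The contrast was tested by the quasi-likelihood F-test with Benjamini-Hochberg adjustment over 12460 genes, a gene being called at an adjusted p under 0.05, and standard errors were taken as the absolute log2 value over the square root of F. CPM was computed on TMM-scaled library sizes. The fitting code was tested on simulated data.

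Gene names and positions came from the Ensembl release 115 annotation of the Release 6 assembly, by identifier for 16343 of 16438 genes, with 76 more named through RefSeq. Genes named in the text were the 12 called genes of largest contrast and the 12 of smallest p in each direction with a mean of at least 1 CPM over the 12 libraries of the contrast, up to 10 genes with opposite called changes, up to 4 called members and the most counted member of each list, and the most counted called genes and called lncRNAs, up to 5 in each direction. All called genes so selected are named, CG13962 only as a neighbour and without its values, and those not called are given by their range. Genes at the threshold, neighbours of called genes and the ends of a range are named as such, and any further gene is marked as chosen after its values were seen. The genes, the 27 functional and 14 marker lists and the tests were chosen with earlier results of these data known. Alternatives were DESeq2 1.42.0, RLE and upper-quartile scaling, other low-count filters, the 12 libraries alone, a replicate block and leaving out each library. Omitting both prepupal replicates 2, the shallowest libraries, was added after seeing the data. No libraries were left out. Intervals given as ± are standard errors, and replicate libraries differed by more than sampling noise.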

Additional observations from a re-analysis of the deposited data

Results flagged for a closer look

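Population and stage interacted for 85 genes with a positive and 99 with a negative contrast, the difference between the NL and ZI changes being itself the test. The 10 genes with the clearest opposite changes were named for this. CG15126 (contrast 4.81), CBP (2.69), Sk1 (2.1), the pigmentation gene t (1.77) and CG33226 (1.5) rose in NL and fell in ZI. GstD5 (-4.26), lncRNA:CR45588 (-3.4), CG33301 (-2.99), edin (-2.89) and Ugt37B1 (-1.76) fell in NL and rose in ZI. Of these, CG15126, CG33226, edin and Ugt37B1 lost their call in 8 to 10 of the 12 fits that left out 1 library, while the other 6 kept it in all of them.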

How the results depend on the processing

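Each of the 184 contrasts kept its sign in all 20 alternatives that gave it a value. With the 12 libraries of the contrast alone 287 genes were called, 140 of them positive, and with both prepupal replicates 2 omitted 86 were called, 34 positive and 52 negative. Upper-quartile scaling called 133 positive genes of 239, so that 55.6% of calls were positive against 46.2%. Leaving out 1 library gave 103 to 209 calls, 45 to 67 positive and 55 to 145 negative. The positive count was 55 without NL early replicate 1, 48 without NL prepupal replicate 1, 53 without NL early replicate 2, 54 without NL prepupal replicate 2, 45 without ZI prepupal replicate 2 and 48 without ZI prepupal replicate 3. The negative count was 55 without NL prepupal replicate 1 and 65 without ZI prepupal replicate 2. The calls NL over ZI prepupal were 300 with both prepupal replicates 2 omitted and 377 to 510 with 1 library left out, the lowest without NL prepupal replicate 1. The calls NL over ZI late were 1658 from the late libraries alone and 1771 to 4114 with 1 left out, with 1773 without NL late replicate 2, 1771 without ZI late replicate 2 and 1825 without ZI late replicate 3. The cause was not tested. Deviations of same-numbered libraries correlated between -0.244 and 0.425 and exceeded 0.1 in 6 of 18 pairs. Differently numbered libraries were not compared, so these values cannot decide whether equal replicate numbers pair the samples. A fit with the replicate block called 189 genes, 171 of them among the 184. DESeq2 called 250 genes, 178 of them among the 184. Values of the called genes named by the rule stayed called in 1097 of 1358 cases over the alternatives and reversed in none. With 3 libraries in each group, genes of few counts carried wide errors, such as a standard error of 1.13 on the log2 scale for CG15126 against 0.17 for Cyp6a14.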
